A study of Mus musculus with 42 samples.

Results

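Carboxylesterases are the subject here: 10 mouse genes, Ces1c, Ces1d, Ces1e, Ces1f, Ces1g, Ces2a, Ces2c, Ces2e, Ces3a and Ces3b, out of 20651 genes with a named probe on the array. They were read through 13 of 55681 probes, 3 for Ces2c, 2 for Ces2e and 1 for each of the other 8 genes. The genes were chosen by family name together with a measured value, the log2 change of Ces1g with dose, which was higher in lung and not higher in liver. Levels and dose changes of Ces1g in lung and in liver, and its differences between tissues, are therefore given as descriptions with no test, and Ces1g is left out of the counts of genes called there.

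Carboxylesterases are serine hydrolases of the endoplasmic reticulum that split ester and amide bonds in drugs, insecticides and many other foreign compounds, and several of them also act on stored fats. Liver is the classic site of their expression, and in rodents one of them is secreted from liver into plasma, where human plasma has no counterpart. The polycyclic aromatic hydrocarbon used here belongs to a chemical class best known for binding the aryl hydrocarbon receptor (AhR), a transcription factor that switches on Cyp1a1, an oxidising enzyme that acts in the same xenobiotic metabolism as the carboxylesterases.

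Adult male Muta™Mouse, a transgenic strain made for mutation assays and aged about 11 weeks, received benzo(k)fluoranthene (BkF) in olive oil by gavage on 28 successive days, or olive oil alone. Vehicle controls are called D0, and the low-, medium- and high-dose mice, given 25, 50 and 100 mg of BkF per kg body weight each day, are called D1, D2 and D3. Tissues were taken 72 hours after the last dose. RNA came from random slices of the frozen right lung lobe, left liver lobe and forestomach, with all their cell types. A smaller number of cells of a type and less RNA per cell therefore cannot be told apart in any value below. Lung was measured in 4, 3, 4 and 4 mice of D0 to D3, liver in 4, 2, 3 and 4, and forestomach in 4, 3, 4 and 3, on 42 arrays from 15 mice. On every array the tissue RNA carried Cy5 and a universal mouse reference RNA carried Cy3, with no dye swap. Liver was run on slides of its own and lung and forestomach shared theirs, so slide and tissue cannot be told apart in comparisons with liver. A level is the log2 ratio of tissue over reference, which can be compared between samples for 1 gene but not between genes, and a change is a difference of such levels.

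The 3 tissues carried their own markers. All 8 hepatocyte markers were well above background on every liver array, all 5 alveolar type 2 cell markers on every lung array and all 5 squamous epithelium markers on every forestomach array. The forestomach arrays also held glandular stomach markers, in unequal amounts that are described with the forestomach results. The share of probes well above background ran from 40.6 to 60% in lung, 38.4 to 57.6% in liver and 28.1 to 46% in forestomach. Within a group, 2 arrays correlated between 0.673 and 0.9784. Among the arrays that stood apart by markers of other tissues were the lung of D2 mouse 12 (skeletal muscle score 5.37, squamous epithelium score 4.40), the lung of D1 mouse 7 (glandular stomach score 3.71), the liver of D3 mouse 17 (skeletal muscle score 4.59) and the forestomach of D3 mouse 16 (white fat score 2.98, against 1.23 in D0 mouse 4 and at most 0.21 in the other forestomachs). A score is the mean log2 difference of a marker list from its median over the arrays of the tissue.

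In vehicle-treated mice the carboxylesterases were liver genes, with levels that fell off steeply in lung and forestomach. All 10 were above background on every liver array, 6 on every lung array and 4 on every forestomach array. Of the genes measured above background in both lung and liver, 5 were tested beside Ces1g (Ces1d, Ces1e, Ces1f, Ces2c and Ces2e). All 5 were lower in lung at a limma adjusted p of at most 0.05 and at least 1.5-fold, where 40.8% of 37084 probes tested in either tissue were called in either direction. The gap was smallest for Ces1d, the triacylglycerol hydrolase that mobilises stored fat (older name Ces3). Its levels were 6.95, 6.60, 7.10 and 6.57 in the 4 vehicle lungs and 9.32, 9.13, 9.15 and 9.30 in the livers, a 5.34-fold difference with no overlap (limma adjusted p = 3.18e-06). Ces1e (egasyn, which holds beta-glucuronidase in the endoplasmic reticulum) was 6.43-fold lower in lung and Ces1f (a lipid hydrolase) 17.4-fold. The mean of Ces1g was 21.3-fold lower, as a description. In the Ces2 group Ces2c was 157-fold lower and Ces2e 25.9-fold lower. In the vehicle lungs the Cy5 signals of Ces1g (116 to 227.5) and Ces2c (100.5 to 252.5) were dim, where the array medians were 78 to 119. No background was subtracted, so the folds of these 2 genes may be too small. The other 4 genes were not well above background on any of the 15 lung arrays, and entered the comparison through liver alone, so no test is drawn from them. On the scale of the ratios, with lung at background, their vehicle livers were higher by at least 349-fold for Ces1c (the secreted plasma carboxylesterase), 429-fold for Ces2a, 1340-fold for Ces3a and 145-fold for Ces3b.

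**Figure D1:**
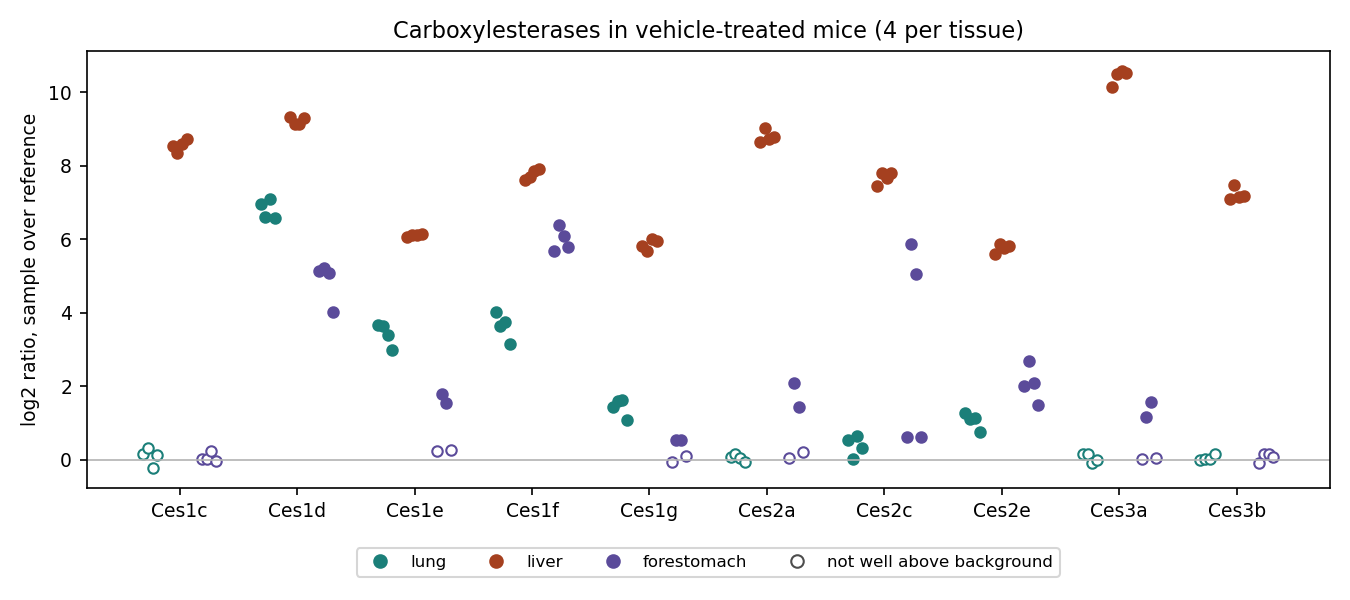
Log2 ratio of sample over reference (y axis) for the 10 carboxylesterases (x axis) in the 4 vehicle-treated mice of each tissue, 1 point per mouse. Open points were not well above background; liver points lie above the lung and forestomach points of every gene, and Ces1f lies nearest to liver in forestomach, Ces1d in lung.

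The order of lung and forestomach differed between genes. The 4 genes above background on every forestomach array (Ces1d, Ces1f, Ces2c and Ces2e) were all called by limma as higher in vehicle liver than in vehicle forestomach, where 37.5% of 33073 probes were called in either direction. The gap was smallest for Ces1f, at 3.43-fold, with forestomach levels of 5.69, 6.39, 6.09 and 5.79 against liver levels of 7.61, 7.69, 7.85 and 7.92. It was 13-fold for Ces2e, 20.5-fold for Ces1d and 24.9-fold for Ces2c. Between lung and forestomach the same 4 genes were called, where 33.5% of 33497 probes were. Ces1d was 3.83-fold higher in lung, while Ces1f, Ces2c and Ces2e were 5.08-fold, 6.28-fold and 1.99-fold higher in forestomach. The call of Ces1d was lost on the ratios written by the scanner's own program, where lung was 0.08 higher on the log2 scale (limma adjusted p = 0.854). That of Ces2c was lost without the forestomach of D0 mouse 2 or of D0 mouse 3 (limma adjusted p = 0.115 and 0.0799). Ces1e and Ces1g were above background in all 4 vehicle lungs but in 2 of the 4 vehicle forestomachs, so no fold is given for them. Ces2a and Ces3a were above background in no vehicle lung and in 2 of the 4 vehicle forestomachs, so no order of the tissues is given for them. Ces1c and Ces3b were at background in both tissues of the vehicle mice. On the forestomach side the values for Ces2c, Ces1e, Ces2a and Ces3a differed widely between the 4 vehicle mice, as described with the forestomach results.

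Ces1g, a lipid and cholesteryl ester hydrolase known from liver, had the plainest dose order of the family in lung. Its levels in the vehicle lungs were 1.45, 1.59, 1.64 and 1.10. The D1 lungs had 1.58, 2.24 and 1.23, the D2 lungs 3.00, 1.94, 2.39 and 2.63, and the D3 lungs 3.23, 2.84, 2.77 and 2.88. All D2 and D3 lungs lay above all vehicle lungs, while D1 overlapped the vehicle range. The group means were 1.44 ± 0.24 (SD, n = 4), 1.68 ± 0.51 (SD, n = 3), 2.49 ± 0.45 (SD, n = 4) and 2.93 ± 0.20 (SD, n = 4), which gave changes of 0.24, 1.05 and 1.49, or 1.18-fold, 2.06-fold and 2.8-fold. Each slide carried both a vehicle and a D3 lung, and D3 exceeded vehicle by 1.78, 1.26, 1.78 and 1.13 on the 4 slides, although the array position on the slide followed dose, so that position and dose cannot be told apart. The ratios written by the scanner's own program gave 1.06 at D3. Leaving out D2 mouse 12 turned the D2 change from 1.05 to 1.23.

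In liver Ces1g stood at a much higher level and showed no such order. The vehicle livers had 5.81, 5.67, 6.01 and 5.94, the D1 livers 5.86 and 5.70, the D2 livers 5.84, 5.88 and 5.16, and the D3 livers 5.32, 5.46, 5.48 and 6.13. Of the 4 D3 livers, 3 lay below the vehicle range and the other was the highest liver of all. The D3 change was -0.26 (-0.44 to -0.17 with an array left out), and by slide it was -0.35 and -0.17. The D3 lung mean of 2.93 remained far under the lowest liver value of 5.16. In forestomach Ces1g was well above background on only 3 of 14 arrays, with levels of 0.55 and 0.55 in D0 mice 2 and 3 and 0.91 in D3 mouse 17. The D3 change in forestomach was -0.07 (95% interval -0.59 to 0.46, limma adjusted p = 1). Between tissues the D3 change of Ces1g was 1.75 larger in lung than in liver.

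**Figure D2:**
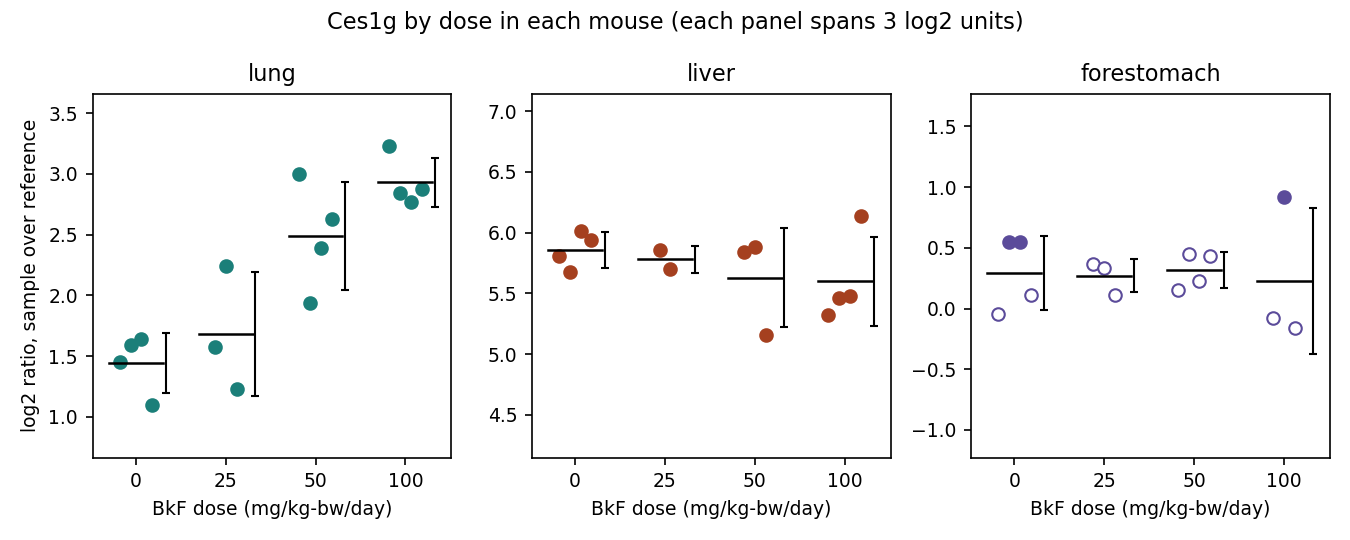
Ces1g log2 ratio of sample over reference (y axis) by BkF dose in mg/kg-bw/day (x axis) in lung, liver and forestomach, 1 point per mouse, with the group mean (line) and SD (bar) and open points for spots not well above background. The panels have different ranges but the same span. The lung means run from 1.44 at 0 to 2.93 at 100 mg/kg-bw/day, the liver means from 5.86 to 5.60.

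Genes of the AhR response were measured on the same lung arrays. Cyp1a1 had a vehicle mean of 2.67 ± 0.55 (SD, n = 4) and means of 6.78, 8.96 and 9.48 at D1, D2 and D3, and Ahrr, the repressor of AhR, went from -0.64 to 2.46, 3.51 and 4.40. Of the AhR list, 3 of 7 tested genes passed the test at D3 in lung, all upward: Cyp1a1 (change 6.81, limma adjusted p = 0.0034), Cyp1b1 (6.14, limma adjusted p = 0.00374) and Ahrr (5.04, limma adjusted p = 0.00133). Ces1g thus changed by less than these on the same log2 scale of differences. Among 15201 genes in lung, those whose levels ran most like Ces1g over the 15 arrays were H1f2 (Pearson r = 0.92), Adamts14 (0.88), Stimate (0.87), Tiparp (0.87) and Slc46a3 (0.87), with Ahrr at 0.83 (rank 16) and Cyp1a1 at 0.81 (rank 25). In liver, over 13 arrays and 14479 genes, the closest were Tango6 (0.87), Hgfac (0.87), Tcf7 (0.87), Vps54 (0.86) and Tbc1d32 (0.86), while Ahrr was at -0.09 and Cyp1a1 at -0.34. These correlations are descriptions, since the arrays share dose groups and the lung values of Ces1g were part of the choice. In liver Cyp1a1 went from 0.02 in vehicle mice to 5.28 ± 1.88 (SD, n = 4) at D3 (limma adjusted p = 0.13), beside the D3 change of -0.26 for Ces1g.

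The promoter of Ces1g is shown because its lung levels ran with AhR genes, beside that of Cyp1a1, the standard AhR target. Both are the 250 bases before the RefSeq start in mouse build GRCm38.p6, Ces1g at chr8:93337210-93337459 on the minus strand and Cyp1a1 at chr9:57697363-57697612 on the plus strand, written 5′ to 3′ on the gene's strand, with the AhR core motif GCGTG in capitals where a search of both strands found it.
Ces1g: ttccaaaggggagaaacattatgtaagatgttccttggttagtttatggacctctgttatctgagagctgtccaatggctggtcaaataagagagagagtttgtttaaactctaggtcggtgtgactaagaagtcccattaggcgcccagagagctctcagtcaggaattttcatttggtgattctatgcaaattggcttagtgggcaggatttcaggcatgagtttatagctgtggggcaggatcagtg
Cyp1a1: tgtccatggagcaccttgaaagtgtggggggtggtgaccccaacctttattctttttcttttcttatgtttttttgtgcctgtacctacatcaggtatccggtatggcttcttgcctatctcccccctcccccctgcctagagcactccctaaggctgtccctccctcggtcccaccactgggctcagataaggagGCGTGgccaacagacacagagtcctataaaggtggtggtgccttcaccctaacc
The motif begins 54 bases before the Cyp1a1 start, and these letters are not in the Ces1g window. Sites farther than 250 bases from a start were not searched for either gene, and binding of AhR was not tested. Of the 10 carboxylesterases, 7 had a promoter sequence (not Ces1d, Ces1f or Ces3a), and GCGTG was in 0 of the 7, compared with 28.2% of 32851 promoters searched in the same way. The antioxidant response core TGACNNNGC was also in 0 of 7, compared with 10.2% of promoters. All 7 lie on chromosome 8, where the family sits in clusters, so the 7 are not independent, and these shares were not compared by a test.

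In lung the other carboxylesterases did not pass the test. Besides Ces1g, 5 genes were tested there: Ces1d, Ces1e, Ces1f, Ces2c and Ces2e. None was called at D1, D2, D3 or in the dose trend by limma, where 0%, 0.0153%, 0.0336% and 0.0336% of 32696 probes were called. At an unadjusted p under 0.05 there was 1 gene at D1 (Ces2c), 0 at D2, 1 at D3 (Ces1f) and 1 in the trend (Ces1f), beside 1.76%, 4.25%, 8.02% and 8.48% of probes. The 5 genes were all higher on average at D3, with a median change of 0.23, while the median of all probes was 0.00. They are not independent of each other. Over the lungs, 8 of 15 pairs of these genes and Ces1g had a Pearson r above 0.5 (median 0.54, range -0.05 to 0.9).

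Ces1f had the next largest lung change after Ces1g. Its levels were 4.03, 3.65, 3.74 and 3.16 in D0, 4.31, 3.69 and 3.16 in D1, 4.31, 2.73, 3.21 and 4.26 in D2, and 4.61, 4.13, 4.13 and 4.59 in D3. All 4 D3 lungs lay above all vehicle lungs, but D1 and D2 spread across the vehicle range. The D3 change was 0.72 ± 0.33 (SE), or 1.64-fold (limma adjusted p = 0.622). On the ratios written by the scanner it was 0.08. Ces2e had levels of 1.28, 1.12, 1.15 and 0.75 in D0, 1.80, 1.61 and 1.48 in D1, 2.09, 0.62, 1.28 and 1.91 in D2, and 1.40, 1.86, 1.43 and 1.65 in D3. Both D1 and D3 lay wholly above the vehicle range, with changes of 0.55 (limma adjusted p = 1) and 0.51 (limma adjusted p = 0.637). At D3 these were 2 of the 5 genes with every lung above every vehicle lung, as were 2.94% of probes. Within slides the D3 change of Ces1f was 0.58, 0.48, 1.42 and 0.39.

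The remaining lung genes overlapped the vehicle range at D3. Ces1d was at 7.12, 6.46, 7.12 and 6.83 in D3 against 6.57 to 7.10 in D0, a change of 0.08 (95% interval -0.52 to 0.67, limma adjusted p = 0.977). Ces1e was at 3.83, 3.46, 3.75 and 3.58 against 2.99 to 3.68. Its change was 0.23 (0.09 to 0.31 with an array left out, 95% interval -0.36 to 0.82, limma adjusted p = 0.904). These intervals reach past 1.5-fold upward, so a change of that size was not resolvable with these arrays. Ces2c, a hydrolase of fats and acylcarnitines, was highest in D1, with 1.80, 0.39 and 0.84 against 0.55, 0.03, 0.64 and 0.33 in D0, a change of 0.62 (limma adjusted p = 1). The D1 maximum was mouse 7, the lung with the glandular stomach score of 3.71, where the other 14 lungs ran from -0.31 to 0.88. Without it the D1 change of Ces2c was 0.23. Ces1c, Ces2a, Ces3a and Ces3b could not be tested in lung at any dose, because no array measured them above background.

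Among the lung arrays, Ces1d, Ces1e and Ces1f ran with the markers of all 3 lung cell types listed. Correlations were computed between the 5 genes other than Ces1g and all 12 marker lists, 60 relations in all, and 11 had an adjusted permutation p of 0.05 or less for Pearson r. Of these, 9 were the relations of Ces1d, Ces1e and Ces1f with the scores of club cells (the secretory cells of the airways), alveolar type 1 cells (the flat cells of gas exchange) and alveolar type 2 cells (the makers of surfactant). Over 15 lungs Ces1f was closest to the club cell score, with a Pearson r of 0.89 and a Spearman rho of 0.88 (adjusted permutation p = 0.0009 and 0.0024). Its r was 0.82 with alveolar type 1 and 0.72 with alveolar type 2. Ces1d and Ces1e were closest to alveolar type 1, with an r of 0.85 and 0.84 (rho 0.90 and 0.89; adjusted permutation p = 0.0009 and 0.0051 for r, 0.0006 and 0.0009 for rho). With the club cell score their r was 0.69 and 0.75, and with alveolar type 2 it was 0.71 and 0.81. Ces2e ran with the club cell score, at an r of 0.78 and a rho of 0.80 (adjusted permutation p = 0.0078 and 0.00708), and was at 0.41 and 0.47 with the alveolar scores. Ces2c had its highest r with the glandular stomach score, 0.79 (adjusted permutation p = 0.0784), and the hepatocyte score, 0.73 (adjusted permutation p = 0.0305), but its rho was 0.46 with each and r fell to 0.43 and 0.44 without the 2 most extreme lungs. Without the 2 lungs most extreme in the score concerned, r was 0.88 for Ces1f with club cells, 0.93 and 0.79 for Ces1d and Ces1e with alveolar type 1, and 0.80 for Ces2e with club cells. Within dose groups these were 0.92, 0.94, 0.85 and 0.74. With alveolar type 2 the r of Ces1e and Ces1f fell to 0.55 and 0.47 without the 2 most extreme lungs. Ces1d and the alveolar type 1 score also differed by slide, which was not taken out. On 2 of the 4 slides Ces1d was at 6.95 to 7.23 and the score at 0.06 to 0.20. On the other 2 they were at 5.95 to 6.83 and at -0.43 to 0.08. The part of slide in these correlations was not tested. Ces1g had an r of 0.50, 0.25 and 0.28 with the club cell, alveolar type 1 and alveolar type 2 scores, as a description. The club cell score ran from -1.16 to 0.02 in D0 and from -0.38 to 0.88 in D3, so it was on average higher in D3, as Ces1f was, and its part in that change was not tested. D2 mouse 12, with the skeletal muscle markers, had a club cell score of -1.14 and the lowest level of Ces1d, Ces1e, Ces1f, Ces1g and Ces2e in its group. Without it the D2 change of Ces2e was 0.68 in place of 0.40, and that of Ces1f 0.28 in place of -0.02.

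**Figure D3:**
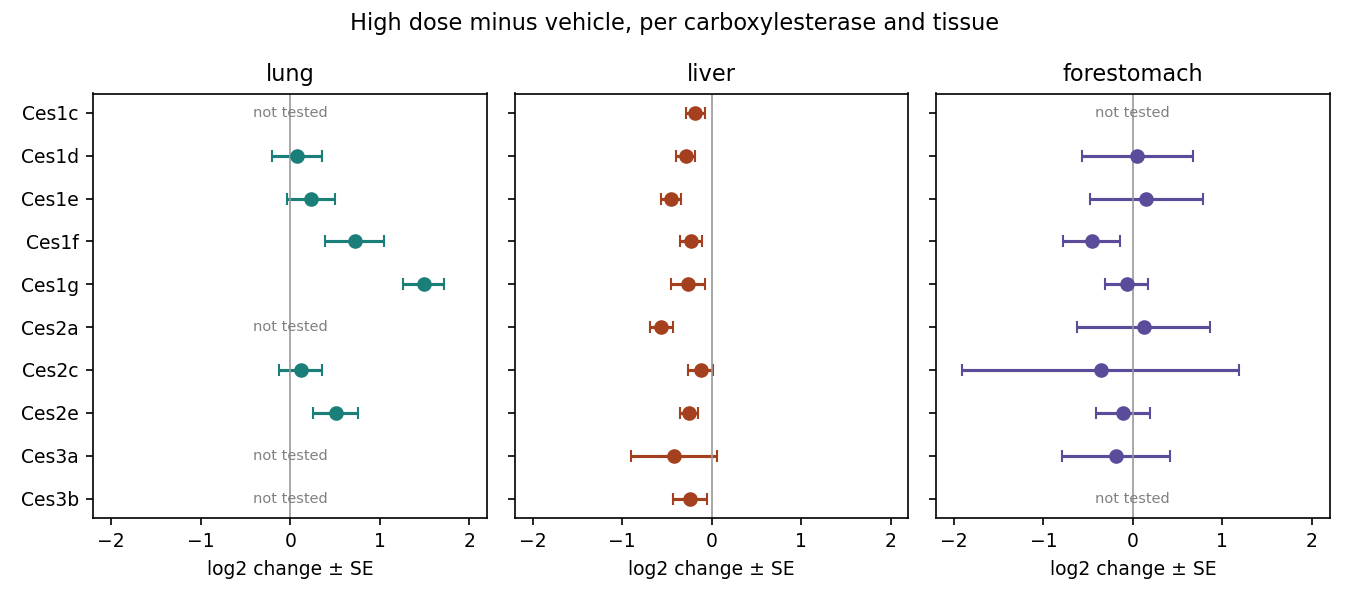
Log2 change of D3 against vehicle (x axis, difference of group means) with its SE (bars) for each of the 10 carboxylesterases (y axis) in lung, liver and forestomach; genes left out by the filter on dim probes are marked as not tested. All 10 liver points lie between -0.56 and -0.12, the lung points between 0.08 and 1.49, and the forestomach bars cross 0 except that of Ces1f.

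In liver the averages lay on the low side of vehicle. All 9 tested genes other than Ces1g had lower means than vehicle at D2 and at D3, with median changes of -0.43 and -0.25, where the median of all probes was -0.01 and 0.00 and 51.3% and 51.2% of probes were lower. Each gene is read here through its brightest probe: the other 2 probes of Ces2c were higher than vehicle at both doses (D2 changes of 0.70 and 0.63), and so was the second probe of Ces2e (0.19 at D2, 0.03 at D3). The D2 median was -0.13 without the liver of D2 mouse 12, with all 9 still lower. These doses share the 4 vehicle livers, so the counts are not independent of each other. Nor are the genes, which varied together over the livers. Of 45 pairs of the family's genes, Ces1g included, 30 had a Pearson r above 0.5 (median 0.66, range -0.09 to 0.93). The 9 genes therefore cannot be read as 9 separate observations beside the share of probes. None of the 9 was called by limma at D1, D2, D3 or in the trend, where 0%, 0.0427%, 0.0525% and 0% of 30453 probes were called. At an unadjusted p under 0.05 there were 0 genes at D1, 6 at D2 (Ces1d, Ces1e, Ces1f, Ces2a, Ces3a and Ces3b), 4 at D3 (Ces1d, Ces1e, Ces2a and Ces2e) and 4 in the trend, beside 1.54%, 10.7%, 7.8% and 8.61% of probes. Without mouse 12 the 6 at D2 came to 4 (Ces1e, Ces1f, Ces2a and Ces3a). Every D3 liver lay below every vehicle liver for 4 of the 9 (Ces1d, Ces1e, Ces2a and Ces3b), and for 3.03% of probes. For Ces3b the groups all but met, with the highest D3 liver at 7.094 and the lowest vehicle liver at 7.095.

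Ces2a, a liver and gut carboxylesterase closely related to human CES2, had the lowest unadjusted p of the family at D3. The vehicle livers were at 8.66, 9.04, 8.72 and 8.80, the D1 livers at 8.47 and 8.70, the D2 livers at 8.21, 7.97 and 8.49, and the D3 livers at 8.04, 8.22, 8.40 and 8.30. All D2 and D3 livers lay below all vehicle livers, and D1 straddled the lower edge of the vehicle range. The D3 change was -0.56 ± 0.13 (SE), a ratio of 0.678 (95% interval 0.557 to 0.824, limma adjusted p = 0.216), and the D2 change was -0.58 (limma adjusted p = 0.206). Ces1e was tightly held in vehicle livers at 6.06, 6.13, 6.12 and 6.14. It was at 6.07 and 6.07 in D1, 5.86, 5.44 and 5.75 in D2, and 5.42, 5.74, 5.70 and 5.80 in D3. Here D1 lay within the vehicle range, while all D2 and D3 livers lay below it, with a D3 change of -0.45 ± 0.11 (SE, limma adjusted p = 0.261). The 2 slides gave D3 changes of -0.71 and -0.41 for Ces2a and of -0.52 and -0.38 for Ces1e.

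At D3 the other Ces1 genes differed less from vehicle in liver, although at D2 Ces1f changed about as much as Ces1e (-0.43). Ces1d was at 9.32, 9.13, 9.15 and 9.30 in D0, 8.92 and 9.08 in D1, 9.10, 8.69 and 9.08 in D2, and 8.89, 8.87, 8.99 and 9.00 in D3. All exposed livers lay below all vehicle livers, yet the gap was narrow and the D3 change was -0.29 (limma adjusted p = 0.541). Ces1f was at 7.61, 7.69, 7.85 and 7.92 in D0 and 7.42, 7.09 and 7.48 in D2, a change of -0.44 (limma adjusted p = 0.277). At D3 Ces1f was at 7.35, 7.50, 7.52 and 7.78, so the groups overlapped and the change was -0.23 (limma adjusted p = 0.672). Ces1c ran from 8.36 to 8.72 in D0 and from 8.15 to 8.58 in D3, a change of -0.18 (95% interval -0.42 to 0.06, limma adjusted p = 0.732).

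Ces3a and Ces3b, a neighbouring pair of liver carboxylesterases, were set apart at D2 by a single mouse. Ces3a was at 10.14, 10.50, 10.59 and 10.53 in D0, 10.25 and 10.20 in D1, 9.93, 7.01 and 9.81 in D2, and 9.77, 9.86, 10.36 and 10.09 in D3. The value of 7.01 belonged to mouse 12, whose liver was also the lowest of its group for Ces1d, Ces1e, Ces1f, Ces2a, Ces2c, Ces2e and Ces3b. The D2 change of Ces3a was -1.52 (limma adjusted p = 0.339), and it was -0.57 without mouse 12. For Ces3b, with D2 levels of 7.12, 6.11 and 7.13 against 7.10 to 7.47 in D0, the change went from -0.44 to -0.11 without that mouse. Without it the D2 change was -0.45 for Ces2a, -0.31 for Ces1e, -0.32 for Ces1f and -0.13 for Ces1d. At D3 the changes were -0.42 for Ces3a (limma adjusted p = 0.873) and -0.24 for Ces3b (limma adjusted p = 0.802). The hepatocyte marker score of mouse 12 was -0.11, inside the range of the other livers. Its score for the brown fat list (Ucp1, Cidea and Elovl3) was -1.16, where the other 12 livers ran from -0.19 to 0.24, and the part of that in the low values of Ces3a and Ces3b was not tested.

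The hepatocyte score itself was somewhat lower at D2 and D3. It ran from -0.01 to 0.22 in the 4 vehicle livers and was -0.04, -0.11 and -0.04 in the D2 livers, all below the vehicle range. The D3 livers were at -0.34, -0.35, 0.02 and -0.08, so 3 of 4 lay below it. Over 13 livers and 108 relations (9 genes with 12 marker lists), the r with this score was 0.93 for Ces2e and 0.82 for Ces2a (rho 0.86 and 0.87; adjusted permutation p = 0.00324 and 0.0184 for r, 0.00936 for both rho). It was 0.76 for Ces1e, with a rho of 0.84 (adjusted permutation p = 0.0803 and 0.0173), and 0.38 to 0.66 for the other 6 genes. Ces3a, with 1 far value, had an r of 0.38 and a rho of 0.90 (adjusted permutation p = 0.608 and 0.0054), and Ces3b an r of 0.48 and a rho of 0.83 (adjusted permutation p = 0.473 and 0.0175). Without the 2 livers with the most extreme scores r was 0.81 for Ces2e, 0.91 for Ces2a and 0.76 for Ces1e, and within dose groups it was 0.94, 0.67 and 0.47. The part of the score in the lower carboxylesterase levels was not tested. The 2 livers with the lowest hepatocyte scores were those of mice 16 and 17. They had the 2 lowest D3 levels of Ces1c, Ces1d, Ces1f, Ces2a, Ces2c, Ces2e and Ces3a, but not of Ces1e or Ces3b. They were also the D3 livers of 1 slide, and mice 19 and 20 those of the other, so slide and score cannot be told apart there.

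**Figure D4:**
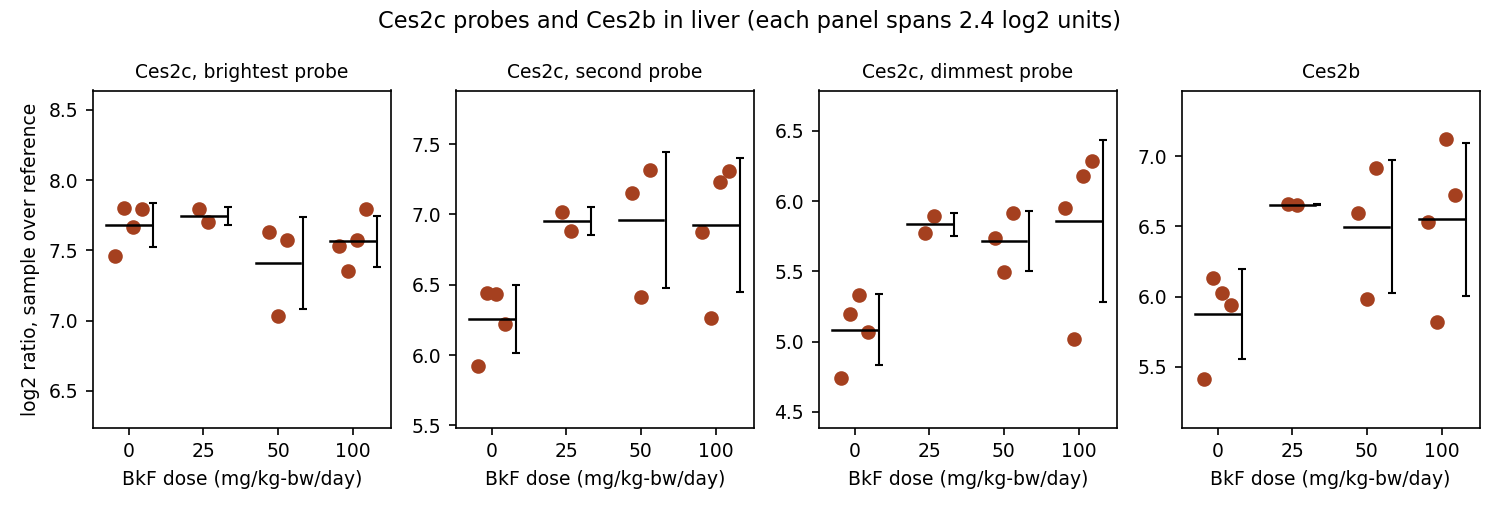
Log2 ratio of sample over reference (y axis) by BkF dose in mg/kg-bw/day (x axis) in liver for the 3 Ces2c probes and the Ces2b probe, 1 point per mouse, with group mean (line) and SD (bar). The brightest Ces2c probe is flat to slightly lower with dose, with a D3 change of -0.12, whereas the other 2 probes and Ces2b are higher, by 0.67 to 0.77.

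The 3 probes of Ces2c disagreed in liver. The brightest, used as the value of the gene, was at 7.46, 7.80, 7.67 and 7.79 in D0 and 7.53, 7.35, 7.58 and 7.80 in D3, with a change of -0.12 (limma adjusted p = 0.886). The second probe was at 5.92, 6.44, 6.44 and 6.22 in D0, 7.02 and 6.88 in D1, 7.15, 6.41 and 7.31 in D2, and 6.87, 6.27, 7.23 and 7.31 in D3. The dimmest was at 4.74, 5.20, 5.33 and 5.07 in D0, 5.77 and 5.89 in D1, 5.74, 5.49 and 5.92 in D2, and 5.95, 5.02, 6.18 and 6.29 in D3. Both of these probes were higher in most exposed livers, apart from D2 mouse 12 on the second probe and D3 mouse 17 on both. Their D3 changes were 0.67 ± 0.24 (SE, limma adjusted p = 0.515) and 0.77 ± 0.23 (SE, limma adjusted p = 0.411), and without mouse 17, the liver with skeletal muscle markers, 0.88 and 1.05.

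Ces2b, a close relative outside the 10 genes, followed the 2 dimmer Ces2c probes. It was at 5.41, 6.14, 6.02 and 5.94 in D0 and 6.53, 5.82, 7.12 and 6.73 in D3, a change of 0.67 (limma adjusted p = 0.57). Over the 13 livers Ces2b had a Pearson r of 0.96 with the second probe (Spearman rho 0.96) and of 0.93 with the dimmest probe (rho 0.90), and the 2 probes had 0.94 with each other (rho 0.87). The adjusted permutation p for these 3 of 6 relations was at most 4e-05 for r and 0.00052 for rho. With the brightest probe the r was 0.32 for the second probe, 0.22 for the dimmest and 0.34 for Ces2b (adjusted permutation p = 0.362, 0.487 and 0.362). After each dose group's mean was taken out, however, the brightest probe had an r of 0.88 with the second, 0.67 with the dimmest and 0.77 with Ces2b. The probes thus varied together among mice of a dose and differed in how the dose groups were placed. Probe sequences were not compared here, so whether a probe also binds transcripts of a related gene was not tested. The 2 probes of Ces2e differed as well: the brighter one had levels of 5.61, 5.88, 5.77 and 5.82 in D0 and 5.34, 5.43, 5.69 and 5.62 in D3, a change of -0.25 (limma adjusted p = 0.581), while the other changed by 0.03 (limma adjusted p = 0.987) and was above background in liver alone.

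In forestomach the levels of several carboxylesterases split by a feature that was not dose. Of the 14 arrays, 5 had a glandular stomach score between -5.21 and -3.81 (D0 mice 1 and 4, D2 mouse 11, D3 mice 16 and 20), and the other 9, which include all 3 of D1, had scores between -0.65 and 0.71. Cblif, Atp4a and Atp4b, the defining markers of acid-secreting gland, were above background in 0 of the 5 and in all 9 of the others, Gkn1 in 2 of the 5 and Gkn2, Muc5ac and Tff1 in all 14. Ces2c split with them without overlap, from 0.61 to 1.33 in the 5 arrays and from 3.43 to 6.06 in the 9. Ces2a was above background in 0 of the 5 and 8 of the 9, Ces1e in 1 and 8, Ces3a in 0 and 6, and Ces1g in 0 and 3. Their ranges touched or overlapped, with Ces1e at 0.09 to 0.74 against 0.50 to 2.32 and Ces2a at -0.01 to 0.39 against 0.13 to 2.80. Ces1d, Ces1f and Ces2e were above background on all 14 arrays and did not split this way: Ces1d ran from 4.03 to 5.86 in the 5 and from 2.48 to 5.55 in the 9. Ces3b was above background in none and Ces1c in 1. Ces2b and Ces2g, outside the 10 genes, split like Ces2c, at 0.52 to 2.05 against 3.54 to 7.49 and at 0.40 to 1.19 against 1.67 to 3.53. The split was not particular to glandular stomach markers. Between the 5 arrays and the 9, the enterocyte score ran from -1.10 to -0.61 against -0.60 to 0.77, the hepatocyte score from -1.12 to -1.01 against -0.68 to 1.5 and the pancreatic acinar score from -0.49 to -0.30 against -0.31 to 0.40. Of the enterocyte markers only Vil1 split fully, above background in 0 of the 5 and in all 9 of the others. Fabp2 was above background in 2 and 8, Lct in 1 and 4, Apoa4 in 0 and 4 and Alpi in 0 and 0. Within the 9 arrays, as a description, Ces1e and Ces2a both had an r of 0.93 with the enterocyte score (rho 0.88 and 0.70), against 0.68 and 0.64 with the glandular stomach score (rho 0.42 and 0.52). Ces2c had an r of 0.87 with the glandular stomach score (rho 0.60) and of 0.77 with the enterocyte score (rho 0.33), and these fell to -0.01 and 0.11 without the 2 arrays most extreme in each score. Which tissue's RNA the values follow was not tested. No set of groups was tested on this split, which was seen in the data.

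**Figure D5:**
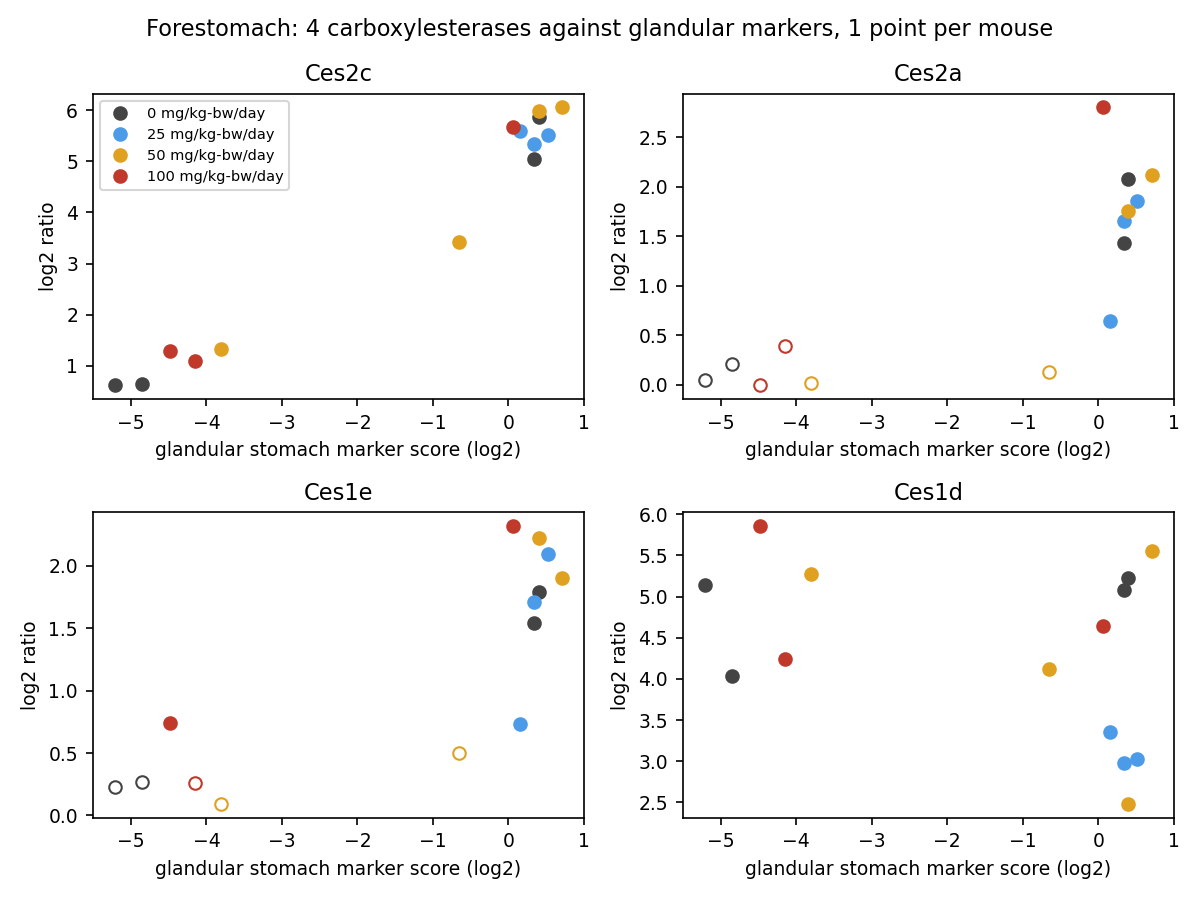
Log2 ratio of sample over reference (y axes) of Ces2c, Ces2a, Ces1e and Ces1d against the glandular stomach marker score (x axes, log2) in 14 forestomachs, 1 point per mouse, coloured by dose, with open points for spots not well above background. Ces2c falls into a cluster of 5 arrays at 0.61 to 1.33 and 9 at 3.43 to 6.06, while Ces1d spans 2.48 to 5.86 without such a split.

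No carboxylesterase was called in forestomach at any dose or in the trend by limma, and neither was any probe (0%, 0%, 0% and 0% of 25302 at D1, D2, D3 and in the trend). Of the 8 tested, 3 had an unadjusted p under 0.05 at D1 (Ces1d, Ces1f and Ces2e), 1 at D2 (Ces2e), 0 at D3 and 0 in the trend, beside 12.1%, 7.58%, 2.2% and 2.81% of probes. Ces1d was at 5.14, 5.23, 5.09 and 4.03 in D0, 3.03, 2.97 and 3.36 in D1, 5.28, 2.48, 4.13 and 5.55 in D2, and 5.86, 4.65 and 4.24 in D3. All 3 D1 values lay below the vehicle values, whereas D2 and D3 spread across them. The D1 change was -1.75 ± 0.62 (SE, limma adjusted p = 0.322), and it was called when only the D0 and D1 arrays were fitted (limma adjusted p = 0.0357), a fit in which 333 probes were called in place of 0. Ces1f was at 5.69, 6.39, 6.09 and 5.79 in D0 and 4.77, 5.12 and 5.30 in D1, with a change of -0.93 (limma adjusted p = 0.318). Ces2e was at 2.02, 2.68, 2.08 and 1.49 in D0 and 1.40, 1.16 and 1.07 in D1, with a change of -0.86 (limma adjusted p = 0.317). Both genes had all D1 values under all D0 values, as Ces1d did, so this held for 3 of the 8 genes and for 9.21% of probes.

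For the same 3 genes the squamous epithelium score, of the markers of the forestomach's own lining, is given as a description, since they were picked for their low D1 values and the score was low in D1 too. Over 14 arrays the Pearson r was 0.83 for Ces2e (Spearman rho 0.87), 0.81 for Ces1d (rho 0.75) and 0.72 for Ces1f (rho 0.79). Other lists ran as high: the alveolar type 1 score had an r of 0.84 with Ces1d and 0.74 with Ces1f, and the brown fat score 0.82 with Ces2e. Over the 9 arrays with glandular markers the r with the squamous score was 0.82, 0.80 and 0.71 for Ces2e, Ces1d and Ces1f, and within the dose groups of those arrays it was 0.42, 0.83 and 0.45. The score was 0.20 to 0.45 in D0 and -0.81 to -0.16 in D1, so it was lower in D1 as these genes were, and its part in their D1 values was not tested. Without the 5 arrays low in glandular markers the D1 changes were -2.03 for Ces1d, -1.17 for Ces1f and -1.17 for Ces2e, and none was called (limma adjusted p = 0.317, 0.292 and 0.15).

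Ces2c, which split without overlap, spread widely within D0, D2 and D3. Its levels were 0.61, 5.87, 5.05 and 0.63 in D0, 5.51, 5.33 and 5.59 in D1, 1.33, 5.98, 3.43 and 6.06 in D2, and 1.28, 5.68 and 1.08 in D3. The D1 change was 2.44 ± 1.55 (SE, limma adjusted p = 0.526). The vehicle group held both kinds of array and D1 only the kind with glandular markers. Without the 5 arrays the change was 0.02, but they were chosen after seeing the data, by a split that Ces2c itself follows. The part of the split in the D1 change was not tested. At D3 no gene had an interval that excluded 0, and that of Ces2c ran from -3.71 to 2.99, too wide to resolve even a large change. Ces1f had the lowest D3 mean relative to vehicle, at -0.46 (95% interval -1.16 to 0.24, limma adjusted p = 1).

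The difference of the D3 change between tissues was tested for the genes other than Ces1g. Between lung and liver 0 of 5 were called by limma (0.0153% of 26065 probes), and 2 had an unadjusted p under 0.05, Ces1f with a difference of 0.95 (limma adjusted p = 0.88) and Ces2e with 0.76 (limma adjusted p = 0.882). Between lung and forestomach 0 of 5 were called (0.0122% of 24501 probes), and Ces1f, with a difference of 1.18 (limma adjusted p = 0.885), was the 1 gene with an unadjusted p under 0.05. Between liver and forestomach 0 of 7 were called (0% of 22682 probes), with 0 genes at an unadjusted p under 0.05. The tissue differences of Ces1d, Ces1e and Ces2c between lung and liver were 0.36, 0.68 and 0.24, with SEs of 0.56, 0.57 and 1.27. The SEs come from 1 fit over all 3 tissues and so hold the spread of the forestomach arrays. With lung and liver alone in the fit, an alternative added after seeing the data, they were 0.32, 0.31 and 0.30. Again 0 of 5 were called (limma), and 3 had an unadjusted p under 0.05: Ces1e (limma adjusted p = 0.609), Ces1f (limma adjusted p = 0.539) and Ces2e (limma adjusted p = 0.501).

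Other genes of related function gave no further call. Of 9 further carboxylesterase genes listed, 7 had a probe, and 2, 5 and 3 were tested in lung, liver and forestomach, with D3 median changes of -0.30, 0.01 and 0.26. Among 12 other drug hydrolases, 0 of 12 in lung, 0 of 12 in liver and 0 of 10 in forestomach passed at D3, with medians of 0.09, -0.10 and 0.02. Lists of lipid hydrolases and lipoprotein assembly (13, 13 and 11 tested), Nrf2 targets (7, 7 and 7), CAR and PXR targets (4, 6 and 3) and PPAR alpha targets (5, 6 and 5) also had 0 genes called at any dose. In liver the PPAR alpha list, genes of fat oxidation, had 5 of 6 lower at D3 with a median of -0.39, beside the carboxylesterase median of -0.25. The other doses did not pair this way. At D1 the list had 5 of 6 lower with a median of -0.30, beside -0.04 for the carboxylesterases. At D2 it had 3 of 6 lower with a median of 0.06, beside -0.43.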

How the data were processed

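Messenger RNA was measured on 42 two-colour Agilent arrays from 15 mice. The authors deposited 1 scanner file per array with linear median intensities of the red and green channels and, per the file headers, a log10 ratio of red over green from Feature Extraction 10.7.3.1 (lung and forestomach) or 11.0.1.1 (liver). The authors also deposited log2 ratios of all arrays in tabular form, LOWESS-normalised without background subtraction. Over all probes these correlated with the loess ratios made here at 0.9945 to 0.9989 on lung and forestomach arrays, and at -0.00301 to 0.000338 on liver arrays, so the liver columns were not used.

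Here the medians of both channels, with no background subtraction, were loess-normalised within each array (limma 3.58.1 in R 4.3.3, with release 1.17.8 of data.table and 2.0.0 of jsonlite). Of the spots, 59305 per array were not controls, and the 3671 control spots and outlier spots had no weight. Spots of a probe were averaged to 55681 probes, of which 27224 had 1 symbol from RefSeq (GRCm38.p6). A probe was tested in a tissue if the scanner had marked red as well above background on 3 lung, 2 liver or 3 forestomach arrays or more, which left 32696, 30453 and 25302 probes. The authors used MAANOVA; limma's moderated linear model took its place, with all doses of a tissue in 1 fit, Benjamini-Hochberg adjustment over all tested probes, and calls made where the adjusted p was 0.05 or less and the change 1.5-fold or more. Contrasts between tissues came from 1 fit over all arrays. Tests are two-sided, and permutation tests of correlations used 100000 resamples. Scripts were tested on simulated data. The number of arrays limits the precision.

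Each of the 10 genes was named in every tissue by the probe brightest over all arrays. Of other lists, called genes were named (at most 5 per list and tissue), with Cyp1a1 and Ahrr beside Ces1g and the 5 genes most correlated with it in lung and in liver. The genes and lists were chosen with earlier results of these data known. Alternatives were the scanner's ratios, the deposited log2 ratios, normexp background correction with an offset of 50, no filter on dim probes, the brightest probe within the tissue, slide as a block, only the 2 groups compared, array weights by tissue, the glandular stomach score as a covariate, each array left out in turn, mouse as a replicate block and, added after seeing the data, leaving out 5 forestomach arrays and fitting only the 2 tissues compared. The labels give the same mouse number to tissues of 1 animal, which pairs them. Over 22290 probes the 39 same-mouse pairs of arrays had correlations of their deviations from group means from -0.208 to 0.38 (median 0.0851).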

Additional observations from a re-analysis of the deposited data

Results flagged for a closer look

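Ces1d in the forestomach of D0 mouse 4 was at a log2 ratio of 4.03, away from the other 3 vehicle forestomachs at 5.09, 5.14 and 5.23. The gap to the nearest was 0.883 of the range of the group. It was the 1 far value among 54 groups of 4 mice checked (1.85%), where chance gives about 1 in 20. Without this mouse the low-dose change of Ces1d in forestomach was -2.03 in place of -1.75.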

How the results depend on the processing

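Of 276 alternatives for the counts of genes called by dose and for the high-dose change of Ces1g in lung, 274 left the count within 1.5 times, or the Ces1g change within 1 SD of replicates, of its main value. With only the D0 and D1 groups in the fit, 1 carboxylesterase (Ces1d) was called in forestomach at the low dose in place of 0, and the scanner's ratios gave 1.06 for Ces1g in lung at the high dose; the cause was not tested. Leaving out each array in turn gave 1.37 to 1.55 for Ces1g in lung. Between vehicle lung and forestomach 3 or 4 of the 4 genes measured throughout were called. Of 343 alternatives for the high-dose change of single genes, 32 turned a sign or came to 0.00, all in forestomach except Ces1d in lung, which was 0.00 to 0.22 with an array left out, and none of these changes was called. In forestomach the scanner's ratios gave -0.26 for Ces1d and -0.04 for Ces2a; slide as a block gave -0.11 for Ces1e, -0.20 for Ces2a and 0.16 for Ces2e; the glandular stomach covariate gave 0.15 for Ces2c; and without the 5 arrays low in glandular markers, chosen after seeing the data, Ces1g was at 0.36, Ces1d at -0.51 and Ces2c at 0.22. With an array left out, the forestomach changes ran from -0.41 to 0.13 for Ces1g, -0.43 to 0.38 for Ces1d, -0.46 to 0.57 for Ces1e, -0.75 to 0.65 for Ces2a, -1.86 to 0.58 for Ces2c, -0.30 to 0.10 for Ces2e and -0.54 to 0.09 for Ces3a. With mouse as a replicate block (correlation 0.0796 over 2229 probes), 5 of 5, 4 of 4 and 4 of 4 genes measured throughout were called between vehicle tissues (lung and liver, lung and forestomach, liver and forestomach), and 0 for each difference of the high-dose change, as without it. The deposited table was not run for liver. Groups of 2 to 4 mice and, in lung and forestomach, probes near background limit what could be resolved, and dose followed array position on the lung slides.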
